A study of Mus musculus with 22 samples.

Results

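The transcription and chromatin regulators carried on the Ts66Yah minichromosome were examined as a set of 10 genes: Gabpa, Ets2, Runx1, Bach1, Zbtb21, Prdm15, Hmgn1, Brwd1, Morc3 and Setd4. They were listed by symbol, with earlier results of these data known, and all 10 were found among the 55385 genes of the count table. All lie in the part of mouse chromosome 16 (Mmu16) between Mir155 and the chromosome end, taken here as chr16:84714140-98082450 (GRCm38, the build of all gene positions below), which holds 291 annotated genes, 135 of them protein-coding. RNA-Seq had been performed on 2 brain regions, hippocampus (HIP) and entorhinal cortex (EC), of 11 male mice aged 5-6 months on a B6C3B background, with 5 wild-type littermates (wt) and 6 Ts66Yah mice, each giving 1 library per region. Ts66Yah mice carry a freely segregating minichromosome, so that this segment is present in 3 copies in place of 2. The line was derived from Ts65Dn by CRISPR deletion of the centromeric Mmu17 part, through a mosaic male founder. Both genotypes share the background, whose C3B parent is C3H/HeN with the Pde6b allele of BALB/c, and no treatment is named. The question was whether the transcript of each regulator stood above 1-fold, and whether it departed from the 1.5-fold that 3 copies in place of 2 would give.

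Library totals lay between 25.9 and 50.1 M counts (median 34.7 M). Tissue identity was checked with short marker lists, given as summed CPM (a library's count over its total in M, with the total scaled by TMM factors). The 6 hippocampal markers summed to between 410 and 521 CPM in all HIP libraries and between 27.7 and 48.2 CPM in all EC libraries, whereas the 6 cortical markers summed to between 158 and 225 CPM in HIP and between 545 and 841 CPM in EC. Choroid plexus markers ranged from 109 to 3252 CPM over the wt HIP libraries and from 759 to 2778 CPM over the Ts66Yah HIP libraries, and no marker of any of the 11 lists was called between genotypes in either region. Bulk tissue cannot separate a change in the number of cells of a type from a change in transcript per cell.

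These proteins act at several levels of gene control. GABPA, ETS2, RUNX1, BACH1, ZBTB21 and PRDM15 bind DNA: the first pair through the ETS domain, RUNX1 through the Runt domain, BACH1 through a basic leucine zipper, and ZBTB21 and PRDM15 through zinc fingers. HMGN1 binds the nucleosome itself, BRWD1 carries bromodomains that read acetylated histones, MORC3 is a nuclear ATPase that binds methylated histone H3, and SETD4 is a SET-domain methyltransferase. A factor of this kind can act on genes outside the triplicated segment, which is why their dosage in the brain is of interest in Down syndrome models.

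Promoter sequences of all 10 genes were found in RefSeq (GRCm38.p6), as windows from 250 bases before to 50 bases after the start, with 12 windows in all because Runx1 and Prdm15 have 2 each. The ETS motif CCGGAAG, the core bound by GABPA and ETS2, was searched on both strands and was found in the windows of Gabpa, Setd4 and Prdm15, against 9.12% of all 27025 promoter windows. Those 3 windows are shown because the triplicated set itself encodes ETS factors, and capitals mark the motif, which lies on the minus strand of each printed window (CTTCCGG as read). The Gabpa window is at chr16:84834874-84835173 on the plus strand of the chromosome, the Setd4 window at chr16:93603766-93604065 on the minus strand, and the Prdm15 window at chr16:97851801-97852100 on the minus strand.
Gabpa: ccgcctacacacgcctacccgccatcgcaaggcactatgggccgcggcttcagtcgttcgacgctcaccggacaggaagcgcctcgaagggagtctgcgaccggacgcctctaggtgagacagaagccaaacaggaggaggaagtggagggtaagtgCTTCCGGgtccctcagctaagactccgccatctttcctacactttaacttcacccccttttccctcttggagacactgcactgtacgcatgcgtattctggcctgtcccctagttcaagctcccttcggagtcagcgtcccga
Setd4: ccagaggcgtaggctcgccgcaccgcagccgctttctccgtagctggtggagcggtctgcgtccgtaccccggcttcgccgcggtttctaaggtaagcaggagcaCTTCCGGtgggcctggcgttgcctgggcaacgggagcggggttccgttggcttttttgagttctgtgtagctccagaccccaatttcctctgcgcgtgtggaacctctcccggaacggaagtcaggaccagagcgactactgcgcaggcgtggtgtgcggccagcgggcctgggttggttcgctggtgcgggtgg
Prdm15: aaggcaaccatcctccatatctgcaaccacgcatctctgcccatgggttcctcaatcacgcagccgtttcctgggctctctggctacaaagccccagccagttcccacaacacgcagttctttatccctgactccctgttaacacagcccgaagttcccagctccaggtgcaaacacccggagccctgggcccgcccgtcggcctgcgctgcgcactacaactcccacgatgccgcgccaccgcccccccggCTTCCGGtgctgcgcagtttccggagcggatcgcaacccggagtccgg

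The RUNX motif TGTGGT, searched in the same way, was present in the windows of Runx1, Zbtb21 and Hmgn1, against 16.9% of all windows. The distal Runx1 window, at chr16:92826025-92826324 on the minus strand, is shown because Runx1 stood apart from the other members in its values below, and it holds the motif at 2 positions downstream of the start, both on its minus strand and in capitals. Its GC content was 45.0% with 2 CG dinucleotides, whereas the other 11 windows ranged from 52.7% to 80.0% with 20 to 52 CG dinucleotides; the median over all windows was 52.7% with 7. The proximal Runx1 window held no RUNX motif and had a GC content of 69.0%. The AP-1 core TGAGTCA, a part of the element bound by BACH1 with small MAF proteins, and the TATA box TATAAA were in none of the 12 windows, against 5.17% and 14.2% of all windows. These matches describe letters and not binding.
Runx1 distal: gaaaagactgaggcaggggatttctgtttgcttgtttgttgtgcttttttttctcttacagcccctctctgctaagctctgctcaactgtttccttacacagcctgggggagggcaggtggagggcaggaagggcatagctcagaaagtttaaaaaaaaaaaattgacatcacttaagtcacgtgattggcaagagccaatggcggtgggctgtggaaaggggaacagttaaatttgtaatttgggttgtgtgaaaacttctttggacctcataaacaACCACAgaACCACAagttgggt

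Levels were first compared between members per length, as CPM per kb of annotated exon (mean ± SD over libraries). In wt HIP (n = 5), Ets2 was the highest at 13.5 ± 0.991, followed by Hmgn1 at 5.55 ± 0.711, Brwd1 at 5.53 ± 0.23, Gabpa at 4.87 ± 0.392 and Morc3 at 4.35 ± 0.136. Hmgn1 and Brwd1 did not differ beyond their spread, and neither did Hmgn1 and Gabpa. Zbtb21 at 2.804 ± 0.114 and Bach1 at 2.49 ± 0.166 formed the next pair, with Prdm15 at 1.45 ± 0.057 and Setd4 at 0.939 ± 0.0775 below them. Runx1 stood last at 0.0593 ± 0.00466, with 15 to 47 counts per library over all 22 libraries, whereas every other member had at least 81 counts in every library. In wt EC (n = 5), Ets2 again led at 17.1 ± 1.13 and Runx1 was again last at 0.0701 ± 0.0135.

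**Figure D1:**
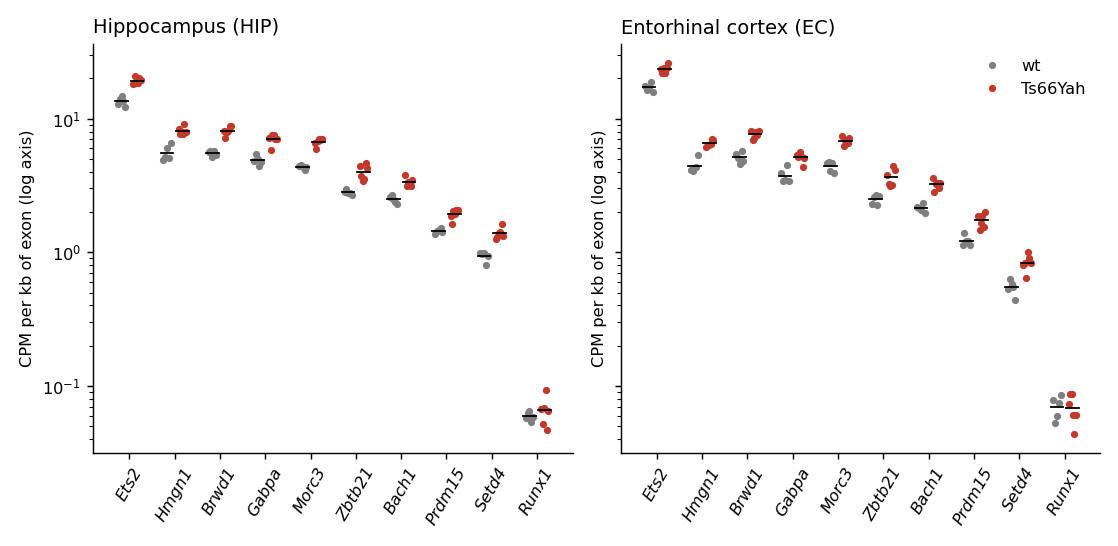
Level of each regulator per library in CPM per kb of annotated exon (log axis), in the HIP and the EC, for wt (grey, n = 5) and Ts66Yah (red, n = 6); bars are group means and genes are ordered by the wt HIP mean. Ets2 is the highest and Runx1 the lowest of the 10 in both regions.

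In the HIP, 9 of the 10 regulators were higher in Ts66Yah than in wt, and in the EC 7 of the 10 were (edgeR quasi-likelihood test, adjusted p below 0.05 over all genes tested). Over all genes, 0.439% of the 18452 tested in the HIP and 0.272% of the 17658 tested in the EC were called higher. None of the 10 was called lower. Runx1 was called in neither region, and Gabpa and Setd4 missed the threshold in the EC. The median fold change over the 10 was 1.44 for HIP and 1.47 for EC, beside a median log2 fold change of 0.00 over all tested genes in each region. Of the other triplicated genes tested, 49 of 91 were called higher for HIP (53.9%) and 38 of 83 for EC (45.8%), with a median of 1.52-fold and 1.49-fold. Among those at or above the level of Setd4, the lowest of the 9 members other than Runx1, 47 of 57 were called for HIP and 37 of 58 for EC, with medians of 1.501-fold and 1.502-fold. The counts and medians of the 10 members include Runx1, which lies below that level.

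**Figure D2:**
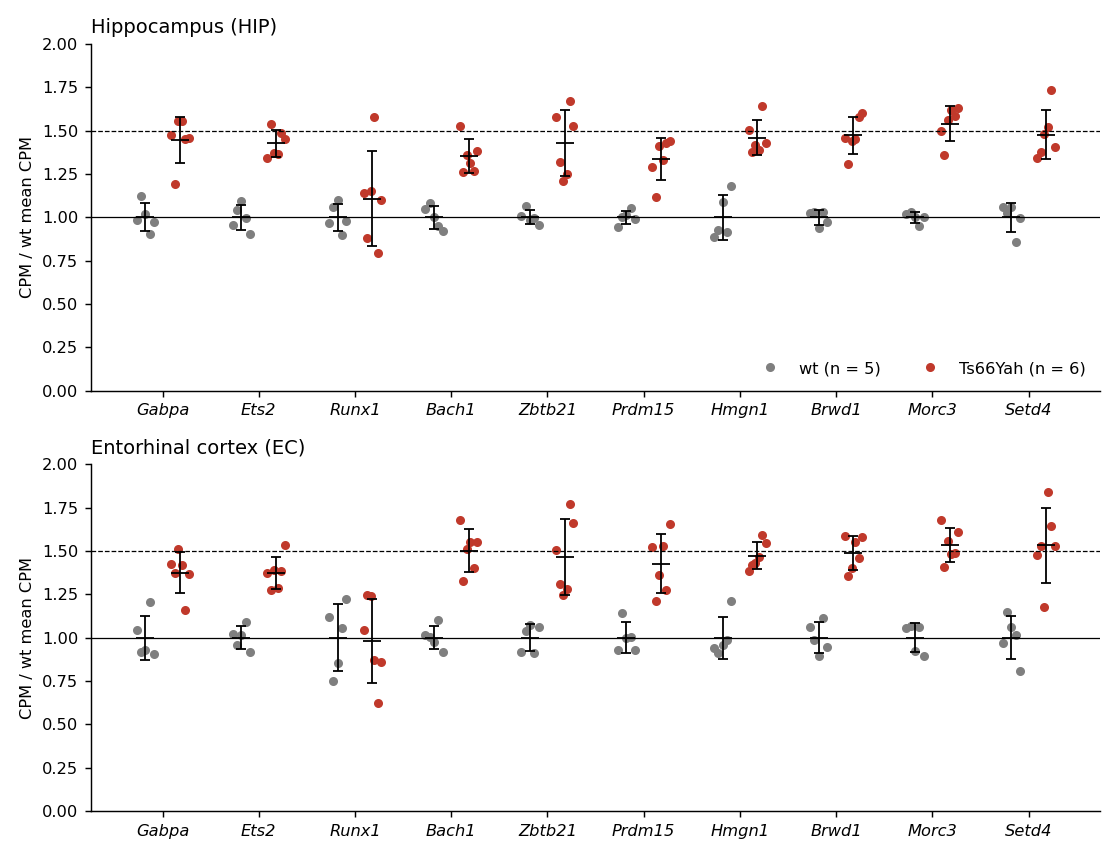
CPM of each library divided by the wt mean of its region, for wt (grey, n = 5) and Ts66Yah (red, n = 6); black bars are mean ± SD, the solid line marks 1 and the dashed line 1.5. All 6 Ts66Yah libraries lie above every wt library for 9 genes in the HIP and for 8 in the EC, and Runx1 overlaps in both.

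This separation was found for 1.06% of all genes tested in the HIP and 0.549% in the EC. Among the other triplicated genes tested, it was found for 56 of 91 (61.5%) and 46 of 83 (55.4%).

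Gabpa (ENSMUSG00000008976, chr16:84834925-84863779, plus strand) encodes the DNA-binding subunit of GA-binding protein, a regulator of nuclear genes for mitochondrial proteins. Its levels in wt HIP replicates 1 to 5 were 27.3, 31.1, 28.1, 24.99 and 26.9 CPM, and the 6 Ts66Yah HIP libraries ranged from 33.1 to 42.99 CPM with a median of 40.5. No library overlapped between the genotypes, although Ts66Yah replicate 2, the lowest, stood apart from the other 5, which lay between 40.2 and 43.0 CPM. Gabpa rose 1.45-fold, 95% interval 1.296 to 1.61, with a log2 fold change of 0.53 and an SE of 0.074 (adjusted p = 0.00197, edgeR). In wt EC it measured 22.2, 19.4, 19.7, 25.6 and 19.3 CPM, and in Ts66Yah EC it ranged from 24.6 to 32.1 CPM with a median of 29.6. Here 1 Ts66Yah library, replicate 5, lay below the highest wt library, replicate 4. The difference was 1.38-fold, 95% interval 1.201 to 1.57, with a log2 fold change of 0.46 and an SE of 0.091, and it missed the threshold with an edgeR adjusted p of 0.0603. It passed with DESeq2 (adjusted p = 0.000667), when no filter on low counts was applied (edgeR, 0.0365), when all 22 libraries entered 1 fit (edgeR, 0.005), and without wt EC replicate 4 (edgeR, 0.0113) or Ts66Yah EC replicate 5 (edgeR, 0.0194). The fit of all 22 libraries takes the HIP and EC libraries of a mouse as independent. The Gabpa difference missed in every other alternative, with adjusted p of 0.0526 by limma voom and between 0.0519 and 0.202 by edgeR. Gabpa and Atp5j, a subunit of the mitochondrial ATP synthase, are arranged head to head on opposite strands and overlap by 701 bases. With both strands searched, 4.46% of the 50-base stretches of the Gabpa transcripts also occur in those of Atp5j. Whether the counting used strand is not stated. Atp5j is triplicated as well and rose by log2 0.54 for HIP and 0.63 for EC (edgeR adjusted p = 0.00031 and 0.00701).

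Ets2 (ENSMUSG00000022895, chr16:95702075-95721051, plus strand), an ETS factor activated by MAP kinase signalling, was the most abundant regulator per kb. In wt HIP it measured 74.6, 81.4, 85.2, 77.8 and 70.5 CPM, and in Ts66Yah HIP 104 to 119.8 CPM with a median of 110.1, with no overlap. Ets2 rose 1.43-fold, 95% interval 1.31 to 1.55, with a log2 fold change of 0.51 and an SE of 0.055 (adjusted p = 0.000182, edgeR). The wt EC libraries held 101, 94.6, 100.2, 108 and 90.8 CPM and the Ts66Yah EC libraries 126 to 152 CPM with a median of 136. The genotypes were again separate, and the difference was 1.37-fold, 95% interval 1.25 to 1.51, with a log2 fold change of 0.46 and an SE of 0.062 (adjusted p = 0.00351, edgeR). No annotated gene overlaps Ets2.

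Runx1 (ENSMUSG00000022952, chr16:92601466-92826149, minus strand), a factor of blood formation that is also expressed in microglia, was the exception of the set. Its wt HIP libraries measured 0.69, 0.75, 0.78, 0.64 and 0.70 CPM and its Ts66Yah HIP libraries 0.567 to 1.12 CPM with a median of 0.80. In the EC, wt libraries measured 0.94, 0.63, 0.72, 0.89 and 1.03 CPM and Ts66Yah libraries 0.525 to 1.05 CPM with a median of 0.805. The genotypes overlapped in both regions: 4 of 6 Ts66Yah libraries lay above all wt libraries of the HIP, and 2 of 6 did so in the EC. The ratio of Ts66Yah to wt was 1.11 in the HIP (95% interval 0.829 to 1.48, edgeR adjusted p = 0.829) and 0.983 in the EC (0.711 to 1.36, adjusted p = 0.997). Both intervals held 1 and both ended below 1.5. The sign in the EC depended on single libraries, and the log2 fold change lay between -0.11 and 0.07 when each was left out in turn. Markers of microglia, in which Runx1 is expressed, summed to 298-410 CPM in wt HIP, 302-342 CPM in Ts66Yah HIP, 378-500.5 CPM in wt EC and 387-450 CPM in Ts66Yah EC over 7 markers, all above 0 in every library. None of the 7 was called, and the median log2 fold change over them was -0.13 for HIP and -0.14 for EC. Their part in the Runx1 ratio was not tested.

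Bach1 (ENSMUSG00000025612, chr16:87698945-87733346, plus strand) encodes a haem-regulated repressor of antioxidant and iron-handling genes. It measured 16.1, 16.6, 15.4, 14.6 and 14.2 CPM in wt HIP and 19.4 to 23.5 CPM with a median of 20.6 in Ts66Yah HIP, with no overlap. The gene rose 1.35-fold, 95% interval 1.22 to 1.495, with a log2 fold change of 0.44 and an SE of 0.067 (adjusted p = 0.00569, edgeR). In wt EC the values were 13.4, 13.3, 12.9, 14.5 and 12.1 CPM, and in Ts66Yah EC 17.5 to 22.2 CPM with a median of 20.2. The increase was 1.501-fold, 95% interval 1.34 to 1.69, with a log2 fold change of 0.59 and an SE of 0.078 (adjusted p = 0.00273, edgeR). Bach1 thus had one of the smaller fold changes of the set in the HIP and one near the dosage in the EC, and the difference between these effects did not pass the test described below.

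Zbtb21 (ENSMUSG00000046962, chr16:97943357-97962622, minus strand) encodes a BTB and zinc-finger protein of the nucleus, and had the largest coefficient of variation among trisomic mice of all members but Runx1. In wt HIP it measured 17.9, 18.9, 17.4, 17.7 and 16.9 CPM, a coefficient of variation of 4.06%. Ts66Yah HIP replicates 1 to 6 measured 28.1, 23.5, 21.5, 22.2, 29.7 and 27.1 CPM, a coefficient of variation of 13.4%. In wt EC it measured 14.5, 16.4, 16.96, 14.4 and 16.7 CPM, and in Ts66Yah EC replicates 1 to 6, from the same mice, 23.8, 20.7, 19.7, 20.2, 28.0 and 26.2 CPM. Mice 1, 5 and 6 were the 3 highest and mice 2, 3 and 4 the 3 lowest in both regions. Mice 5 and 6 are the Ts66Yah mice of the first of the 2 ranges of animal numbers described below, and mice 1 to 4 of the second. Within the first range the log2 fold change of Zbtb21 was 0.64 for HIP and 0.70 for EC. Within the second range it was 0.465 and 0.44. The part of the range in this order was not tested. Zbtb21 rose 1.43-fold, 95% interval 1.26 to 1.62, with a log2 fold change of 0.51 and an SE of 0.085 (adjusted p = 0.0105, edgeR), and in the EC 1.46-fold, 95% interval 1.25 to 1.699, with a log2 fold change of 0.55 and an SE of 0.102 (adjusted p = 0.0422, edgeR). The EC call was lost with limma voom (adjusted p = 0.0555) and when any 1 library was left out other than Ts66Yah replicate 3 or 4 (edgeR adjusted p between 0.0603 and 0.158). Nearly all of Zbtb21 lies within the span of C2cd2 on the same strand, but only 0.583% of the 50-base stretches of its transcripts also occur in transcripts of C2cd2. C2cd2 was higher in all Ts66Yah libraries too, at 22.9-24.3 CPM in Ts66Yah HIP and 21.0-24.5 CPM in Ts66Yah EC, and its order among the mice differed by region. Its highest and lowest HIP values were in mice 6 and 5, whereas its 3 highest EC values were in mice 1, 5 and 6 and its 3 lowest in mice 2, 3 and 4, the same mice as for Zbtb21.

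Prdm15 (ENSMUSG00000014039, chr16:97791467-97851850, minus strand), a PR-domain zinc-finger factor known from embryonic stem cells, showed the smallest increase in the HIP among the called members. Its values were 15.5, 16.5, 16.6, 17.3 and 16.2 CPM in wt HIP and 18.4 to 23.7 CPM with a median of 22.5 in Ts66Yah HIP, without overlap. The gene rose 1.34-fold, 95% interval 1.21 to 1.48, with a log2 fold change of 0.42 and an SE of 0.069 (adjusted p = 0.00967, edgeR). In wt EC it measured 12.8, 15.8, 13.8, 13.9 and 12.8 CPM and in Ts66Yah EC 16.8 to 22.8 CPM with a median of 19.9. The groups did not overlap, and the difference was 1.42-fold, 95% interval 1.24 to 1.64, with a log2 fold change of 0.51 and an SE of 0.094 (adjusted p = 0.0386, edgeR). This EC call rested on most libraries: it was lost without any 1 of wt replicates 1, 3, 4 and 5 or Ts66Yah replicates 1, 3, 4 and 6 (edgeR adjusted p between 0.073 and 0.137).

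Hmgn1 (ENSMUSG00000040681, chr16:96120618-96127729, minus strand) encodes a small protein that binds nucleosomes and loosens chromatin. In wt HIP it measured 15.8, 16.6, 19.5, 16.4 and 21.1 CPM, and in Ts66Yah HIP 24.7 to 29.4 CPM with a median of 25.4. Hmgn1 rose 1.46-fold, 95% interval 1.29 to 1.64, with a log2 fold change of 0.54 and an SE of 0.081 (adjusted p = 0.00407, edgeR). In wt EC the values were 13.4, 13.02, 13.7, 14.1 and 17.3 CPM and in Ts66Yah EC 19.8 to 22.8 CPM with a median of 20.7. Replicate 5 was the highest wt library in both regions, yet it stayed below every Ts66Yah library. The EC increase was 1.47-fold, 95% interval 1.301 to 1.66, with a log2 fold change of 0.56 and an SE of 0.082 (adjusted p = 0.00677, edgeR). Of all 50-base stretches of the Hmgn1 transcripts, 4.33% also occur in processed pseudogenes such as Gm7862, which had a median of 1.5 counts per library, so reads from these stretches could be placed elsewhere.

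Brwd1 (ENSMUSG00000022914, chr16:95992092-96082526, minus strand), a chromatin reader with a long transcript, gave the highest counts of the set, 3067 to 7519 per library. It measured 115, 115, 105, 116 and 109 CPM in wt HIP and 146 to 179 CPM with a median of 163 in Ts66Yah HIP. The increase was 1.47-fold, 95% interval 1.36 to 1.59, with a log2 fold change of 0.56 and an SE of 0.053 (adjusted p = 4.9e-05, edgeR). In wt EC it measured 110.3, 102, 92.9, 115 and 98.1 CPM and in Ts66Yah EC 141 to 165 CPM with a median of 156. It rose 1.49-fold, 95% interval 1.34 to 1.65, with a log2 fold change of 0.57 and an SE of 0.068 (adjusted p = 0.000969, edgeR), and the genotypes did not overlap in either region.

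Morc3 (ENSMUSG00000039456, chr16:93832121-93876073, plus strand), an ATPase found in promyelocytic leukaemia nuclear bodies, had the highest fold change of the 10 in both regions. Its wt HIP libraries held 24.1, 24.4, 23.7, 22.4 and 23.7 CPM and its Ts66Yah HIP libraries 32.1 to 38.5 CPM with a median of 37.2. Morc3 rose 1.54-fold, 95% interval 1.42 to 1.67, with a log2 fold change of 0.62 and an SE of 0.055 (adjusted p = 2.81e-05, edgeR). The wt EC libraries held 25.2, 25.6, 22.04, 25.4 and 21.4 CPM and the Ts66Yah EC libraries 33.6 to 40.1 CPM with a median of 36.5. The rise in the EC was 1.54-fold, 95% interval 1.38 to 1.71, with a log2 fold change of 0.62 and an SE of 0.072 (adjusted p = 0.000784, edgeR). Groups were separate in both regions, with Ts66Yah replicate 2 the lowest of its genotype each time.

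Setd4 (ENSMUSG00000022948, chr16:93583457-93604063, minus strand), a methyltransferase, was the least abundant called regulator. In wt HIP it measured 5.34, 5.18, 5.35, 4.34 and 5.03 CPM and in Ts66Yah HIP 6.78 to 8.76 CPM with a median of 7.28. It rose 1.47-fold, 95% interval 1.28 to 1.69, with a log2 fold change of 0.56 and an SE of 0.092 (adjusted p = 0.00982, edgeR). In wt EC it measured 2.86, 3.38, 3.11, 2.98 and 2.38 CPM and in Ts66Yah EC 3.46 to 5.41 CPM with a median of 4.49, so that the genotypes did not overlap there either. The EC difference was 1.53-fold, 95% interval 1.25 to 1.86, with a log2 fold change of 0.61 and an SE of 0.133, and it missed the threshold (edgeR adjusted p = 0.116). With DESeq2 the adjusted p was 0.00557, and with all 22 libraries in 1 edgeR fit 0.005. The latter fit takes the HIP and EC libraries of a mouse as independent. Every other alternative missed the threshold, with adjusted p of 0.137 by limma voom and between 0.0554 and 0.471 by edgeR. The EC counts behind these values were 81 to 130 in wt and 123 to 207 in Ts66Yah libraries. Of the 50-base stretches of its transcripts, 3.19% also occur in other genes, 197 in all.

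**Figure D3:**
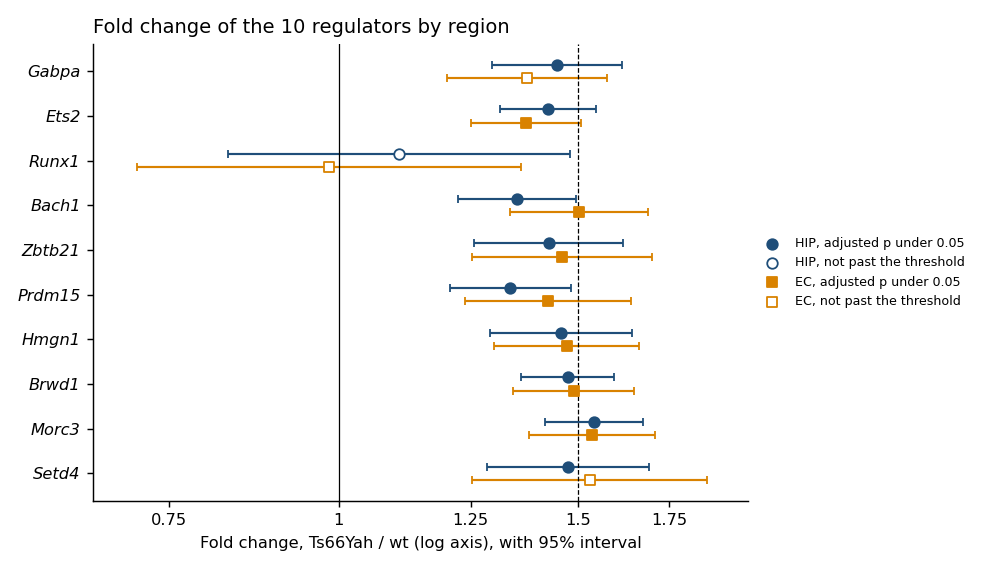
Fold change of Ts66Yah over wt (log axis) with its 95% interval from edgeR, in the HIP (blue circles) and the EC (orange squares); filled symbols have an adjusted p below 0.05, the solid line marks 1 and the dashed line 1.5. The 9 genes other than Runx1 lie between 1.34 and 1.54 in both regions, whereas Runx1 lies at 1.11 and 0.983.

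Departure from 1.5-fold was tested against the triplicated genes alone. None of the 10 regulators departed after adjustment in either region (edgeR), while 5.94% of the 101 triplicated genes tested in the HIP and 1.08% of the 93 tested in the EC did. At an unadjusted p below 0.05, 3 members lay below 1.5-fold in the HIP and 1 in the EC. They were Prdm15, Runx1 and Bach1 in the HIP (edgeR adjusted p = 0.224 for each) and Runx1 in the EC (edgeR adjusted p = 0.232). DESeq2 gave 2 and 1 members, and limma voom 3 and 1, at the unadjusted threshold, and neither gave any after adjustment. The share of all triplicated genes at the unadjusted threshold is not given here, so these counts are not read as a result about the members. The fitted fold change was below 1.5 for 9 of the 10 members when HIP was tested and for 7 when EC was. Among the other triplicated genes at or above the level of Setd4, it was below 1.5 for 27 of 57 and 29 of 58. The sets are not alike in level, since the 10 members include Runx1, which lies below that level and below 1.5 in both regions. The intervals of all members but Runx1, Bach1 and Prdm15 in the HIP, and of all but Runx1 in the EC, held 1.5.

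Each library was also summarised by 1 value, the median over the 10 members of their log2 differences from the mean of wt libraries. This value was 0.52 ± 0.074 (SD, n = 6) in Ts66Yah HIP and 0.53 ± 0.073 (n = 6) in Ts66Yah EC. The 6 mice lay between 0.39 and 0.62 for HIP, and between 0.43 and 0.63 for EC, and Ts66Yah replicate 2 was the lowest in both. The wt mice lay between -0.07 and 0.06 for HIP, and between -0.11 and 0.09 for EC. Each Ts66Yah library had at least 9 of the 10 members above the wt mean of its region. The wt libraries had 2 to 9 in the HIP and 3 to 8 in the EC, so this count alone does not separate the genotypes. The animal numbers of 10 of the 11 mice fall into 2 ranges, with that of wt replicate 1 in neither. Within the first range, with 2 mice per genotype, the median over the members was 0.55 for HIP and 0.57 for EC. Within the second, with 2 wt and 4 Ts66Yah mice, it was 0.53 and 0.49. With the range as a block, in a fit that leaves out wt replicate 1, all 9 HIP calls passed again, whereas in the EC Prdm15 (edgeR adjusted p = 0.163) and Hmgn1 (0.056) no longer did. The log2 fold changes with this block were 0.51 for Prdm15 and 0.54 for Hmgn1, beside 0.51 and 0.56 without it.

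The effect of genotype did not differ detectably between the regions for any member. The interaction of genotype and region was called for 0 of the 10 regulators and for 0.0% of genes by edgeR, DESeq2 and limma voom (19074, 19068 and 19074 genes tested), with 388, 378 and 386 genes, and none of the members, at an unadjusted p below 0.05. The log2 difference of the effects, EC minus HIP, ranged from -0.17 (SE 0.28) for Runx1 to 0.15 (SE 0.098) for Bach1. For Bach1 the 95% interval of this difference was -0.05 to 0.35, and for Morc3, at 0.00, it was -0.18 to 0.18. These intervals come from a fit that does not use the pairing of HIP and EC within a mouse. With the animal as block, edgeR again called 0 of the 10 members. At an unadjusted p below 0.05 that fit gave 772 of 20066 genes and none of the members. Intervals of the width above leave room for a difference, so an equal effect was not shown.

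The level itself differed between regions for several members. In wt mice, 6 of the 10 differed between EC and HIP: Ets2 was higher in the EC, and Gabpa, Setd4, Hmgn1, Prdm15 and Bach1 were lower. Over all genes tested in wt, 23.4% were called higher and 24.3% lower in the EC, so that regional differences were common. Setd4 showed the widest difference, with a log2 ratio of EC to HIP of -0.78 (SE 0.120) in wt and -0.73 (SE 0.106) in Ts66Yah (edgeR adjusted p = 0.000157 and 4.24e-05). All 5 wt EC libraries, at 2.38 to 3.38 CPM, lay below all 5 wt HIP libraries, at 4.34 to 5.35 CPM. Gabpa was lower in the EC by -0.38 (SE 0.091) in wt and -0.46 (SE 0.074) in Ts66Yah, and Hmgn1 by -0.32 (SE 0.104) and -0.32 (SE 0.057), all past the threshold (edgeR adjusted p = 0.00386, 0.000101, 0.0222 and 0.000286). Ets2 was the only called member to be higher in the EC, by 0.35 (SE 0.067) in wt and 0.29 (SE 0.052) in Ts66Yah (edgeR adjusted p = 0.000908 and 0.000289).

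Over all genes tested in Ts66Yah, 26.4% were called higher and 27.5% lower in the EC. There, 4 of the 10 members were called, since Bach1 at -0.07 (SE 0.067) and Prdm15 at -0.16 (SE 0.085) missed the threshold (edgeR adjusted p = 0.403 and 0.126). In wt their values were -0.21 (SE 0.078) and -0.25 (SE 0.076) (edgeR adjusted p = 0.0376 and 0.0173). That these regional differences themselves differ between genotypes is the interaction given above, which was not called. Since HIP and EC came from the same mice, the fit with the animal as block also applies, and in it Zbtb21 in Ts66Yah passed the threshold (edgeR adjusted p = 0.0304, against 0.279). Brwd1, Morc3 and Runx1 were not called between regions in either genotype. In wt, the Bach1 call was lost without any 1 of HIP replicates 1, 2 and 3 or EC replicates 1, 2, 3 and 5 (edgeR adjusted p between 0.0594 and 0.0942), and the Hmgn1 call without any 1 of HIP replicates 3 and 5 or EC replicates 1, 2 and 3 (between 0.0519 and 0.0622). In Ts66Yah, Prdm15 passed without HIP replicate 2 (0.041). Summed markers of some cell types differed between the regions as well. The 5 oligodendrocyte markers summed to 6817-9968 CPM in HIP libraries and 1294-3291 CPM in EC libraries. The 4 choroid plexus markers summed to 109-3252 CPM and 8.49-40.4 CPM. Their part in these regional differences was not tested.

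**Figure D4:**
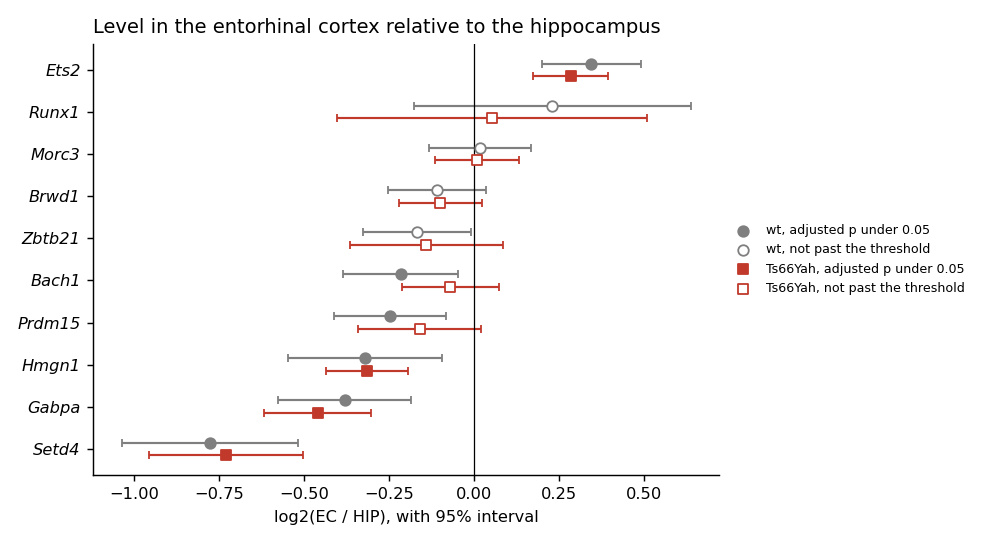
Level in the EC relative to the HIP (log2 ratio) with its 95% interval from edgeR, in wt (grey circles, 5 mice) and Ts66Yah (red squares, 6 mice); filled symbols have an adjusted p below 0.05. Ets2 lies above 0 in both genotypes, and Hmgn1, Gabpa and Setd4 lie below 0 in both.

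The genes with which these regulators act were then listed. Of 6 binding partners outside the segment, 0 were called in either region by edgeR, with 0 in the HIP and 1 in the EC at an unadjusted p below 0.05, and the median log2 fold change was 0.00 for HIP and -0.01 for EC, beside 0.00 over all genes. Over all genes tested, 11.9% for HIP and 6.25% for EC lay below that unadjusted threshold. The small MAF proteins that pair with BACH1 measured -0.01 (SE 0.10) for Mafk and 0.01 (SE 0.043) for Mafg for HIP, against 0.02 (SE 0.091) and 0.04 (SE 0.074) for EC. Cbfb, the partner of RUNX1, measured 0.08 (SE 0.069) in the HIP and -0.04 (SE 0.096) in the EC. The beta subunits that complete GA-binding protein, Gabpb1 and Gabpb2, measured -0.06 (SE 0.078) and -0.08 (SE 0.081) for HIP, against -0.17 (SE 0.076) and -0.06 (SE 0.13) for EC (edgeR adjusted p between 0.747 and 0.989). Gabpb1 in the EC was the 1 partner below the unadjusted threshold (edgeR adjusted p = 0.768).

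Of 21 paralogues outside the segment, 20 were tested in each region, and 0 were called by edgeR, with 1 in the HIP and 0 in the EC at an unadjusted p below 0.05. Neither count exceeded the share over all genes (11.9% and 6.25%). Their median log2 fold change was 0.01 for HIP and -0.02 for EC. Hmgn5, a relative of Hmgn1, was the 1 below the unadjusted threshold, at -0.41 (SE 0.16) in the HIP (edgeR adjusted p = 0.315) and -0.30 (SE 0.15) in the EC (0.84). Hmgn2, the nearest relative of Hmgn1, measured -0.06 (SE 0.26) in the HIP and -0.05 (SE 0.43) in the EC. Brwd3, the X-linked relative of Brwd1, measured 0.02 (SE 0.14) and 0.06 (SE 0.13).

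Known target genes of 5 of the regulators were examined in the same way. Of 24 targets, 0 were called in either region by edgeR, and 4 in the HIP and 0 in the EC had an unadjusted p below 0.05, beside 11.9% and 6.25% of all genes, so that the 4 are not read as a result about the list. The median log2 fold change over the 24 was -0.07 for HIP and -0.06 for EC, and 6 of the 24 in HIP data and 5 in EC data were above 0. The share of all genes above 0 is not given here, so these counts of signs are not read as a result about the list either. The 4 were Gclc, a subunit of the enzyme of glutathione synthesis, at -0.13 (SE 0.051), Slc40a1, the iron exporter ferroportin, at 0.23 (SE 0.098), Polrmt, the mitochondrial RNA polymerase, at -0.24 (SE 0.066), and Cox5b, a subunit of cytochrome c oxidase, at -0.42 (SE 0.16), with edgeR adjusted p of 0.325, 0.366, 0.154 and 0.321. Hmox1, the haem oxygenase that BACH1 represses, measured -0.14 (SE 0.083) in the HIP and -0.16 (SE 0.16) in the EC. Among the 11 BACH1 targets, 4 were above 0 for HIP and 1 for EC, and none was called, so these signs too are not read as a result. Tfam, a mitochondrial transcription factor and a GABPA target, measured -0.06 (SE 0.048) in the HIP and 0.01 (SE 0.062) for EC.

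A further 12 regulators of the same segment served for comparison. Of these, 5 of 12 tested rose for HIP and 3 of 11 for EC, and none fell, with a median log2 fold change of 0.54 and 0.46. Over all genes tested, 0.439% and 0.272% were called higher. Among all triplicated genes other than the 10 members, 49 of 91 and 38 of 83 were called. Some of the 12 lay near the floor, down to a mean of 0.187 CPM in wt HIP, which limits their calls. Dyrk1a, a kinase, Usp16, a histone deubiquitinase, and Mis18a, a centromere factor, passed in both regions: Dyrk1a at 0.54 (SE 0.043) and 0.61 (SE 0.065), Usp16 at 0.59 (SE 0.065) and 0.59 (SE 0.078), and Mis18a at 0.52 (SE 0.10) and 0.63 (SE 0.12), with edgeR adjusted p of 1.22e-05, 0.000265 and 0.0304 for HIP, and 0.000412, 0.00243 and 0.037 for EC. The splicing-related genes Son at 0.58 (SE 0.072) and Paxbp1 at 0.65 (SE 0.080) passed in the HIP (edgeR adjusted p = 0.000655 for each) and missed the threshold in the EC, at 0.38 (SE 0.077) and 0.54 (SE 0.16) (edgeR adjusted p = 0.0679 and 0.446). Erg, another ETS gene of the segment and an endothelial factor, measured 0.14 (SE 0.089) in the HIP and -0.01 (SE 0.11) in the EC (edgeR adjusted p = 0.592 and 0.997). The oligodendrocyte factors Olig1 and Olig2 measured -0.03 (SE 0.12) and -0.13 (SE 0.080) for HIP, against 0.45 (SE 0.19) and 0.31 (SE 0.12) for EC, none past the threshold.

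For each member, the gene outside the segment with the most similar level over all 22 libraries was identified among the 14876 genes averaging 1 CPM or more, by Pearson's r of log2 CPM. These libraries share genotype, region and animal, so r is a description only. Gm42608, an unnamed gene on chromosome 3, came first for Bach1 (r = 0.869), Brwd1 (0.884) and Morc3 (0.823). It was itself higher in Ts66Yah, by log2 0.94 for HIP and 1.30 for EC (edgeR adjusted p = 0.0183 and 0.0119). A gene picked for its likeness to members that differ by genotype will tend to differ by genotype itself, so this is no separate result. Gabpa was most like Arl14ep (0.908), Setd4 most like Gm31305 (0.896), Ets2 most like Uhmk1 (0.859), Prdm15 most like Mettl16 (0.847), Hmgn1 most like As3mt (0.841), Zbtb21 most like Fam222b (0.81) and Runx1 most like Optn (0.79). Runx1 had the weakest match of the 10. Arl14ep, Gm31305, Uhmk1 and As3mt, picked in the same way, were also called higher in the HIP (edgeR adjusted p between 0.0105 and 0.0478). Mettl16, Fam222b and Optn were not, and apart from Gm42608 no picked gene was called in the EC.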

How the data were processed

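RNA-Seq was performed on HIP and EC of the same 11 male mice. According to the study's methods, single-end reads of 50 bases were mapped with Hisat2 to GRCm38 (Ensembl release 99) and assigned to genes with HTSeq-count; strand setting and treatment of multi-mapping reads are not given in the sources used here. The labels describe poly(A) selection, whereas the methods also name ribosomal RNA depletion. The submitters' processing notes list bcl2fastq 2.17.1.14, DESeq2 and mm10.

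The authors deposited raw counts per gene, as whole numbers for 22 libraries, and all columns were mapped by their labels (0 unmapped). They also deposited DESeq2 and FCROS tables with fold changes and p-values of their own comparisons, which were not used.

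The 10 members, the gene lists and the tests were chosen with earlier results of these data known. Symbols and positions came from GENCODE M21, which matched 55144 of 55385 identifiers, and promoters from RefSeq. Genes were filtered with filterByExpr, scaled by TMM and tested with edgeR 4.0.16 (R 4.3.3) by the quasi-likelihood test on genotype alone, separately for HIP and EC. Benjamini-Hochberg adjustment covered all genes tested, and the threshold was 0.05. Departure from 1.5-fold was tested with 1.5-fold as the null, its log entering as an offset for triplicated genes in trisomic libraries, and adjusted over those genes. The SE is the log2 fold change divided by the root of the F statistic. Where the F against 1.5-fold was the larger for a triplicated gene, as for Runx1, the SE comes from that test. It is then the log2 distance from 1.5-fold divided by the root of that F. Regions were compared within each genotype, and the interaction over all 22 libraries. Log2 CPM used a prior count of 2, and CPM per kb the union of annotated exons. The procedure was tested on simulated data. P-values of fits within a region measure the spread between mice. Fits that join both regions without the animal as block take the libraries of a mouse as independent. Counts carry no molecular identifiers.

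Samples were paired between regions by the animal number in their titles: deviations from the group means of HIP and EC libraries of 1 mouse correlated with r between 0.202 and 0.61 in wt and between 0.334 and 0.546 in Ts66Yah. Alternatives were DESeq2 1.42.0, limma voom (limma 3.58.1), RLE factors, TMM factors without triplicated genes, all 22 libraries in 1 fit, no filter, a filter of 1 CPM in 5 or more libraries, the replicate number, animal or range of animal numbers as block, and leaving out each library in turn. Named genes were all 10 members, the listed genes past the threshold, a fixed set of partners, relatives and targets, overlapping genes, and the most similar gene outside the segment; Hmgn5, Gclc, Slc40a1, Polrmt, Cox5b, Erg, Olig1 and Olig2 were named after their values were seen. 1 gene that this rule names is not reported here. Listed genes that are not named enter the counts and medians.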

Additional observations from a re-analysis of the deposited data

Results flagged for a closer look

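Of 40 combinations of member and group, 2 held a library far from the rest of its group by Dixon's criterion, which chance alone gives in about 1 in 20. Gabpa in Ts66Yah HIP replicate 2 measured 33.1 CPM, below the other 5 libraries at 40.2 to 43.0 CPM, with a gap of 0.717 of the range against a limit of 0.625. Hmgn1 in wt EC replicate 5 measured 17.3 CPM, above the other 4 libraries at 13.0 to 14.1 CPM, with a gap of 0.754 of the range against a limit of 0.71. Both genes kept their calls in that region when any 1 library was left out, with log2 fold changes of 0.50 to 0.58 for Gabpa in the HIP and 0.53 to 0.63 for Hmgn1 in the EC.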

How the results depend on the processing

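With the replicate number as block, 4 of the 10 members were called higher in the HIP, in place of 9, and 5 in the EC, in place of 7; same-numbered wt and Ts66Yah libraries correlated with r between 0.005 and 0.118 in the HIP and between 0.013 and 0.276 in the EC, so the numbers do not pair them. The other HIP alternatives gave 9, and the other EC alternatives 5 to 9. Leaving out each library in turn gave 9 in the HIP, 5 to 7 in the EC, 4 to 6 between regions in wt and 4 to 5 in Ts66Yah, and 0 throughout for departure from 1.5-fold and for the interaction, as did all other alternatives. The animal block gave 6 and 5 members between regions. Without a filter, Bach1 (edgeR adjusted p = 0.0943) and Prdm15 (0.0502) were no longer called between regions in wt. The sign of 3 uncalled values turned: Runx1 in the EC was 0.001 with the replicate block and -0.11 to 0.073 with libraries left out, its log2 ratio of EC to HIP in Ts66Yah was -0.026 to 0.183 with libraries left out, and that of Morc3 was -0.004 with at least 1 CPM in 5 libraries and -0.024 to 0.037 with libraries left out. The filter of 1 CPM removed Runx1, so 9 members were tested. Causes of these changes were not tested. Depth limits Runx1 most, at 15 to 47 counts per library.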

Other observations

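Whether mice with a high level of a member in the HIP also had a high level in the EC was examined over 11 mice, after the values of Zbtb21 had been seen, as deviations of log2 CPM from the genotype mean. Two-sided exact permutation within genotype (86400 arrangements) was applied to 10 members and adjusted over them. Mice were exchanged across the ranges of animal numbers, so agreement that follows the range is not told apart. No member passed after adjustment. The share of all genes that agree between the regions in this way is not given here. Over all genes averaging 1 CPM or more, HIP and EC libraries of 1 mouse also deviated together, as given above. The values below are thus not read as particular to the members. Brwd1 gave r = 0.664 (exact permutation p = 0.0218, adjusted 0.107) and Spearman's rho = 0.682 (exact permutation p = 0.0319, adjusted 0.252), with r = 0.524 without the 2 mice farthest from the median in the HIP. Zbtb21 gave r = 0.808 (exact permutation p = 0.0322, adjusted 0.107) and rho = 0.755 (exact permutation p = 0.0756, adjusted 0.252), with r = 0.626 without the 2 farthest mice. Hmgn1 gave r = 0.712 (exact permutation p = 0.0282, adjusted 0.107) and rho = 0.509 (exact permutation p = 0.153, adjusted 0.383), but r = 0.0576 without the 2 farthest, so that its relation rests on those mice. For the other 7 members r lay between -0.231 for Gabpa and 0.626 for Bach1 (exact permutation p between 0.0564 and 0.945). Within Ts66Yah mice, r was 0.949 for Zbtb21, 0.895 for Bach1, 0.617 for Brwd1 and 0.525 for Hmgn1. Within wt mice, r was -0.146 for Zbtb21, 0.185 for Bach1, 0.886 for Brwd1 and 0.772 for Hmgn1. The relation of Zbtb21 was thus not seen in wt mice.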
